A study of Homo sapiens and Mus musculus with 74 samples.

Results

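The proteins of the mitochondrial ribosome were followed here through the mouse libraries of a study of Rpl41, a very small protein of the cytosolic ribosome. The members were the protein-coding genes of the GENCODE M21 annotation whose symbols begin with Mrpl or Mrps and a number, each represented by the transcript with the longest protein. This gave 78 genes among 21823 protein-coding genes in the table, of which 51 encode proteins of the large subunit and 26 encode proteins of the small subunit. The remaining gene, Mrps36, carries a small-subunit name, but its product belongs to the 2-oxoglutarate dehydrogenase complex and not to the mitochondrial ribosome. The proteins were short, with a median of 194 residues and a range of 65 to 442, against a median of 392 over all coding genes. Their genes lie on 17 chromosomes.

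The study measured mRNA by RNA-seq and ribosome-protected fragments (RPFs) by Ribo-seq in kidney and brain, and the fragments protected by pairs of stacked ribosomes by disome-seq in kidney. Each assay and tissue had 3 wild-type (WT) and 3 Rpl41-/- (KO) libraries, which makes 30 libraries in 10 groups, all from mice of the C57BL/6J strain. The Ribo-seq mice were males of 10 weeks. The paper's figure legends give males for RNA-seq and disome-seq too, and the age of the animals behind those libraries is not given in the sources used here. The KO mice were made by electroporating zygotes with CRISPR-Cas9 complexes that remove the Rpl41 coding sequence, so every cell of the animal carries the deletion, and the WT mice carry none. The labels number the replicates but do not say which libraries came from 1 animal, so p-values measure the spread between these libraries, which may be partly technical. The 44 human cell line libraries of the series were not analysed here.

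Mitochondrial ribosomes translate the few mRNAs transcribed from mitochondrial DNA, which encode core subunits of the respiratory chain and of ATP synthase. Their RNAs come from the mitochondrial genome, whereas all of their proteins are encoded in the nucleus, translated by cytosolic ribosomes and imported. RPFs on Mrpl and Mrps mRNAs therefore report how cytosolic ribosomes make the parts of the other ribosome. Some of these proteins descend from bacterial ribosomal proteins (46 members), and others were added in the mitochondrial lineage (31 members). Kidney tubules are rich in mitochondria, which power the reabsorption of salts and nutrients.

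Nuclear genes for mitochondrial proteins are known to be controlled by NRF1 (nuclear respiratory factor 1), by the ETS-family factor GABP and by YY1, and the windows from 250 bases before to 50 bases after each member's annotated start were searched for short motifs of these factors on both strands of GRCm38. The ETS motif CCGGAAG occurred in 29 of 78 member windows (37.2%), in 31.6% of the windows of the 79 cytosolic ribosomal proteins (RPs) and in 11.1% of 21810 windows over all coding genes. The NRF1 motif CGCANGCGC occurred in 14 member windows (17.9%), against 10.1% for cytosolic RPs and 8.67% for all genes. For the YY1 motif AAGATGGCG the shares were 10.3% (8 windows), 5.06% and 1.88%. A TATA box (TATAAA) was in 8.97% of member windows and 12.9% of all windows, and the cyclic AMP response element TGACGTCA was in 2.56% and 2.36%. The windows held a median of 18 CG dinucleotides for members, 21 for cytosolic RPs and 12 for all coding genes. The ETS, NRF1 and YY1 motifs each contain CG, and the part of this difference in their shares was not tested. The ETS motif ends and the YY1 motif begins with the same letters, so a stretch can hold both. In all, 5 members had both an NRF1 and an ETS motif, and 40 had neither. The following stretches, with the motif in capitals and written 5′ to 3′ on the gene's own strand, belong to members whose values are given further on, namely those with the largest kidney excess of RPFs and those whose RPFs fell in KO kidney. They are copied from the GRCm38 genome.
Mrpl12, NRF1 motif in reverse orientation, chr11:120484548-120484572, plus strand: ttgtctccGCGCCTGCGcgtcgcac
Mrpl44, NRF1 motif, chr1:79775976-79776000, plus strand: agcacttgCGCACGCGCagtacact
Mrpl57, NRF1 motif, chr14:57826175-57826199, plus strand: gaatcctgCGCAGGCGCagaaggcg
Mrpl57, ETS motif, chr14:57826235-57826257, plus strand: cagagagaCCGGAAGcagcgcgc
Mrpl33, ETS motif, chr5:31613940-31613962, plus strand: cgcatgccCCGGAAGtagtcgtt
Mrps35, ETS motif in reverse orientation, chr6:147042729-147042751, plus strand: gttacacaCTTCCGGtcccgccc
Mrpl42, YY1 motif, chr10:95501906-95501930, minus strand: attgaagcAAGATGGCGagcgcgcg
Mrps24, YY1 motif, chr11:5707649-5707673, minus strand: gccggcccAAGATGGCGtggtccgc
These are matches of letters only, and binding was not measured.

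Many members also start close to a neighbour. A protein-coding gene on the opposite strand started within 1000 bases of the member's start for 26 of 78 members (33.3%), against 15.2% of cytosolic RPs and 8.68% of all coding genes. In one of these pairs both genes are members, since the starts of Mrpl46 and Mrps11 lie 30 bases apart. In others the partner is itself a gene of mitochondrial function: Mrpl43 lies 116 bases from Twnk, the helicase of mitochondrial DNA replication, Mrps12 lies 182 bases from Sars2, a mitochondrial seryl-tRNA synthetase, and Mrpl47 lies 157 bases from Ndufb5, a subunit of complex I. The partner of Mrpl49, at 158 bases, is Fau, which encodes a protein of the cytosolic small subunit.

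The kidney RNA-seq libraries held 44998381 to 55077048 counts and those of brain 84433838 to 123745890, the kidney Ribo-seq libraries held 11036643 to 42452425 and those of brain 9498663 to 35881929, and the disome-seq libraries held 1187636 to 3018963. Rpl41 itself, the check of the genotype labels, had 3 to 8 reads in each KO kidney RNA-seq library against 3695 to 7502 in WT, and 6 to 12 against 8981 to 12199 in the brain. In the same order its RPF reads were 0 to 2 against 41 to 85 in kidney and 0 to 4 against 37 to 76 in brain, and its disome reads were 0 to 2 against 71 to 154. The 10 kidney tubule and glomerulus markers summed to 5164 to 18701 CPM (counts scaled to a library total of 1000000) in kidney libraries and 1.04 to 11.3 in brain libraries, and the 10 neuron and glia markers to 2141 to 4227 CPM in brain and 0.8 to 7.73 in kidney, so the tissue labels held. Mitochondrial rRNA took 0.436% to 0.962% of the counts of kidney RNA-seq libraries other than KO replicates 2 and 3, which stood apart at 1.76% and 1.67%. Kidney RNA-seq also differed from every other assay in reads assigned to processed pseudogenes, the intronless copies of mRNAs scattered over the genome. Their share there was 0.0267% to 0.0437%. Brain RNA-seq had 1.46% to 1.81%, the Ribo-seq libraries had 3.98% to 4.74% in kidney and 3.63% to 4.21% in brain, and disome-seq had 2.89% to 3.27%.

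Together the 78 mRNAs made up a small part of each library, and more of it in kidney than in brain. The summed level in WT kidney RNA-seq was 1660, 1727 and 1431 CPM of library total in the 3 libraries (mean 1606 ± 155, SD, n = 3), and in WT brain RNA-seq it was 901, 947 and 790 CPM (879 ± 81, n = 3). In Ribo-seq the sums were 1339, 1242 and 1404 CPM in WT kidney (1328 ± 81.7, n = 3) and 704, 759 and 712 CPM in WT brain (725 ± 29.9, n = 3). The lowest kidney library lay above the highest brain library in both assays. The 79 cytosolic RPs went the other way in RNA-seq, with 4556 ± 1069 CPM in WT kidney and 7249 ± 877 CPM in WT brain, and their Ribo-seq sums, 2410 ± 448 and 2112 ± 196 CPM, overlapped. A median of 74.4% of the 31-base stretches of cytosolic RPs also occur elsewhere in the genome. Kidney RNA-seq had the low pseudogene share given above, and its part in the RNA-seq difference of cytosolic RPs was not tested. In KO kidney the members' sums were 1804, 1951 and 1974 CPM in RNA-seq, above all 3 WT libraries, and 1074, 1129 and 1137 CPM in Ribo-seq, below all 3 WT libraries. The disome-seq sums were 958, 897 and 960 CPM in WT and 792, 682 and 704 CPM in KO kidney. In brain the KO sums were 856, 1046 and 1004 CPM in RNA-seq, overlapping WT, and 699, 661 and 652 CPM in Ribo-seq, all below the lowest WT library.

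**Figure D1:**
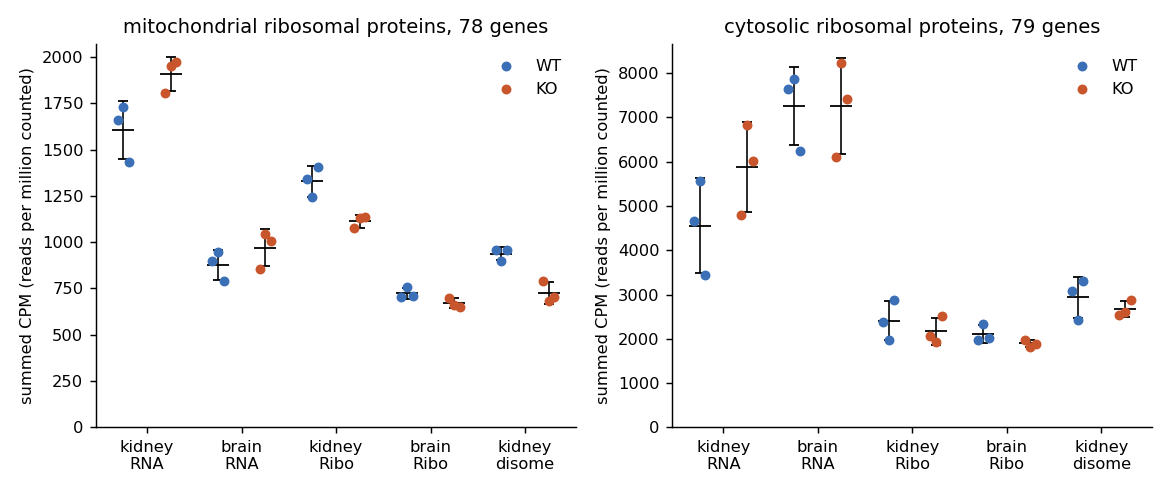
Summed level of the 78 mitochondrial ribosomal protein genes and of the 79 cytosolic ribosomal protein genes, in CPM of library total, in each library by tissue, assay and genotype. Each point is 1 library. In kidney the KO points of the mitochondrial set lie above WT in RNA-seq (1804 to 1974 against 1431 to 1727) and below WT in Ribo-seq (1074 to 1137 against 1242 to 1404).

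Most of these proteins occur as a single copy in each mitochondrial ribosome, and their levels differed widely. Per kb of coding sequence, the RPF level in WT kidney had a median of 26.2 CPM per kb and ran from 7.31 to 92.1, with a ratio of 4.33 between the 90th and 10th percentiles. The highest was Mrps21, a small-subunit protein with a bacterial homolog, at 89, 89.7 and 97.7 CPM per kb. Mrpl33, the shortest member, followed at 87.4, 71.8 and 97.9 CPM per kb, so these neighbours in the order were not separated by their spread. Mrps36 had 76.6, 74.8 and 96.1 CPM per kb of RPFs, Mrpl34 had 74.5, 76.3 and 68.9, and Mrps6 had 64.3, 64.1 and 74.9. The levels of Mrps21, Mrps36 and Mrpl33 are uncertain. Mrps21 and Mrps36 share 59.2% and 89.4% of their 31-base stretches with other places in the genome. Part of Mrpl33 lies in another annotated gene on the same strand. The lowest was Mrpl19, with 7.94, 6.68 and 7.32 CPM per kb, and then Mrps9, with 9.97, 8.57 and 10.6. In brain the same scale had a median of 15 CPM per kb, and Mrps21 (51.7 ± 5.08, n = 3) and Mrpl33 (47.4 ± 5.26, n = 3) again led. Across the 78 members the log2 RPF levels per kb in the 2 tissues had a Pearson r of 0.81 and a Spearman rho of 0.79, and the points share their coding lengths. The mRNA levels, per kb of transcript, spread further, with a 90th to 10th percentile ratio of 10.2 in WT kidney and 7.5 in WT brain. Their correlation with the RPF levels of the same tissue was r = 0.51 in kidney and 0.59 in brain, over 78 members.

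Kidney carried more RPFs than brain on nearly all members. In WT, 70 of 78 members were higher in kidney at an adjusted p under 0.05 (edgeR's quasi-likelihood test over all 14798 transcripts tested) and 0 were lower, where 37.5% of all tested genes were higher and 38.1% lower. The median log2 difference (kidney over brain, after TMM scaling) was 0.95 for the members and 0.01 for all genes, and the libraries of the 2 tissues did not overlap for 68 higher members and 1 lower member, against 36.5% and 41.2% of all genes. For a bulk tissue, more mRNA or RPFs per cell and more cells of a type that expresses the gene cannot be told apart. The largest difference was that of Mrps35, a mitochondria-specific small-subunit protein, with 18.4, 18.0 and 20.2 CPM in kidney and 6.17, 5.79 and 4.42 CPM in brain (log2 difference 1.89 ± 0.15, SE, adjusted p = 5.8e-08). Mrpl44, a large-subunit protein with an RNase III-like fold, had 25.7, 24.9 and 27.0 CPM against 8.87, 5.79 and 8.38 CPM (1.80 ± 0.15, adjusted p = 1.2e-07). Every kidney library lay far above every brain library for both.

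Mrpl12 forms the stalk that recruits translation factors to the large subunit, and it also binds the mitochondrial RNA polymerase. Its RPF levels were 35.5, 34.0 and 39.4 CPM in kidney and 11.5, 11.6 and 10.8 CPM in brain, a log2 difference of 1.77 ± 0.13 (adjusted p = 2.0e-08). Mrpl50 (1.71) and Mrpl34 (1.66) completed the 5 largest rises. By subunit, 46 of 51 large-subunit members were higher with a median of 0.97, and 23 of 26 small-subunit members with a median of 0.80. Members with a bacterial homolog had a median of 0.93 and mitochondria-specific members one of 0.97. Of the members with additional or altered roles, Mrpl58, a peptidyl-tRNA hydrolase that rescues stalled ribosomes, differed by 0.97, Mrps18a by 1.03, Mrps18b by 1.55, Mrps18c by 0.96 and Mrps30, once described as a pro-apoptotic protein, by 0.77, all higher in kidney. The 8 members that passed in neither direction were Mrpl3, Mrpl11, Mrpl19, Mrpl30, Mrpl41, Mrps12, Mrps25 and Mrps33. Mrps12, a protein of the decoding centre, had a log2 difference of 0.19 (adjusted p = 0.216), with overlapping libraries. Mrpl3 had 16.0, 17.1 and 17.8 CPM in kidney and 19.7, 18.4 and 20.7 CPM in brain, and was the 1 member whose kidney libraries all lay below those of brain (log2 difference -0.13, adjusted p = 0.373). Among cytosolic RPs 23 of 79 were higher and 1 was lower, with a median of 0.24.

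The same contrast within KO animals, which uses none of these libraries, gave 71 members higher and 2 lower of 78 (40.6% and 40.4% of all genes tested), with a median log2 difference of 0.84 against 0.01 for all genes. Mrpl12 led with 26.2, 26.3 and 28.2 CPM in KO kidney and 8.93, 8.92 and 7.62 CPM in KO brain (1.82 ± 0.10, adjusted p = 2.5e-10), followed by Mrpl44 (1.69), Mrpl50 (1.65), Mrps35 (1.64) and Mrpl24 (1.57). The 2 lower members were Mrpl3, with 12.7, 14.4 and 12.9 CPM in kidney and 18.9, 20.6 and 20.1 CPM in brain (-0.42 ± 0.09, adjusted p = 8.0e-04), and Mrpl41 (-0.26 ± 0.11, adjusted p = 0.0461). Mrpl3 lies near the peptidyl transferase centre of the large subunit. The call of Mrpl41 was lost under 6 of the 12 alternatives to the analysis settings.

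The proteins that work with the mitochondrial ribosome followed the same direction in WT Ribo-seq, where 37.5% of all genes were higher in kidney and 38.1% lower. All 12 mitochondrial translation factors tested were higher in kidney (median log2 difference 1.13), among them Gfm2 (2.44), which recycles ribosomes, the initiation factor Mtif3 (1.98) and the elongation factors Tsfm (1.98) and Gfm1 (1.84). Of the 20 genes for mitochondrial aminoacyl-tRNA synthetases and the amidotransferase that completes glutaminyl-tRNA, 17 were higher (median 1.05), led by Gatb (2.99), Fars2 (2.11), Rars2 (1.93) and Cars2 (1.70). Of 21 assembly factors 18 were higher (median 0.88), with Gtpbp10 (1.78), Mtg2 (1.61), Eral1 (1.24) and Rpusd4 (1.19) at the top. Among 10 genes of mitochondrial transcription and its nuclear regulators 9 were higher (median 1.01), including Tfb2m (1.41), Lrpprc (1.31), the coactivator Ppargc1a (1.21) and the GABP subunit Gabpa (1.10). Of 13 general mitochondrial proteins 8 were higher and 1 was lower (median 0.74): the chaperones Hspd1 (1.90) and Hspa9 (1.80) and prohibitin Phb (1.67) were among those that rose, and the import receptor Tomm20 fell by 0.54. All 5 genes for mitochondrial ribosomal proteins with other symbols were also higher (median 0.64).

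At the mRNA level the picture was like that of the RPFs for most members but not for a few. In WT RNA-seq 67 of 78 members were higher in kidney and 3 were lower (38.0% and 34.8% of 15860 genes tested), with a median log2 difference of 1.08 against 0.09 for all genes. Mrpl12 had the largest rise, from 16.3, 16.9 and 14.5 CPM in brain to 87.7, 90.1 and 67.6 CPM in kidney (2.61 ± 0.21, adjusted p = 2.0e-06), and Mrps35 (2.27), Mrps6 (2.22), Mrpl54 (2.19) and Mrps7 (2.15) followed. Mrps18a (1.14), Mrps30 (1.14), Mrpl58 (0.91), Mrps12 (0.84) and Mrps18c (0.82) were higher too. Scaling by library totals alone moved the median of all genes by -0.25 in this contrast, and with it 64 members were higher and 5 lower, against 33.2% and 40.3% of all genes. In KO, 63 members were higher and 3 lower (39.3% and 34.3% of all genes), with a median of 1.23.

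The 3 members that fell were Mrpl23, Mrps33 and Mrps36, and each of them has close copies elsewhere in the genome. Mrpl23, a large-subunit protein at the exit of the peptide tunnel (7:142532686-142540747), had 0.206, 0.156 and 0.0222 CPM in WT kidney RNA-seq, which is 10, 8 and 1 reads, and 10.8, 11.4 and 8.70 CPM, or 989, 1080 and 778 reads, in WT brain RNA-seq (log2 difference -6.03 ± 0.45, adjusted p = 1.1e-06). Its RPFs in the WT kidney Ribo-seq libraries were nevertheless 14.1, 13.5 and 13.3 CPM, slightly above the 10.6, 11.4 and 10.6 CPM of brain (0.42 ± 0.12, adjusted p = 0.0075). A processed pseudogene of this gene, Mrpl23-ps1 (2:74591330-74591909), received 1 to 6 reads in each kidney RNA-seq library, 731 to 1149 in those of brain and 128 to 561 in each kidney Ribo-seq library. In the latter 2 assays its reads nearly matched those of Mrpl23 itself library by library, for example 367, 199 and 178 reads beside 366, 200 and 180 in WT kidney Ribo-seq. Mrps33, with 5.18, 5.11 and 3.58 CPM in kidney and 23.0, 24.8 and 18.0 in brain (-2.00 ± 0.24, adjusted p = 4.7e-05), and Mrps36, with 5.53, 4.29 and 6.24 against 14.5, 17.9 and 11.9 CPM (-1.23 ± 0.22, adjusted p = 7.1e-04), also lacked a matching fall in RPFs, where their log2 differences were -0.02 and 1.07.

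To put this on one scale, the share of each member's 31-base stretches that also occur outside the gene in GRCm38, on either strand, was counted. The median was 2.91% for the members and 74.4% for cytosolic RPs. Mrps36 (89.4%), Mrpl23 (67.6%), Mrpl27 (65.2%), Mrps18b (61.4%), Mrps21 (59.2%), Mrpl22 (53.8%), Mrps33 (51.6%) and Mrps10 (51.5%) reached 50% or more, and 46 members were under 5%. Among these 46, 44 were higher in kidney RNA-seq and 0 lower, with a median log2 difference of 1.15. Among the 8 with the most sharing, 3 were higher and 3 lower, with a median of 0.16, and in Ribo-seq the same 8 had 7 higher and a median of 0.79. The authors' alignment allowed reads with several mapping positions. Counts of these 8 members, and of cytosolic RPs with shared sequence, are uncertain for that reason. Those of Mrps18b are uncertain also because 59.1% of its exon bases lie within the antisense gene Gm16279 and the strand setting of the counting is not given in the sources used here. Over 5% of exon bases lay in another annotated gene for 25 members on either strand, and for 4 on the same strand. Their counts carry the same limit.

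Translational efficiency (TE), the change in RPFs relative to the change in mRNA, was tested by an assay-by-tissue term in 1 model over both kinds of library. In WT 7 members had a higher and 1 a lower TE in kidney than in brain (12.4% and 8.98% of 16395 genes tested), and the median log2 difference was -0.02 against -0.01 for all genes. The higher ones were Mrpl23 (6.61), Mrps36 (2.47), Mrps33 (2.15), Mrps18b (1.66), Mrpl4 (0.87), Mrps5 (0.84) and Mrpl48 (0.75), and the lower one was Mrpl30 (-1.04). The first 4 are among the 8 members with 50% or more of their sequence shared, the other 4 share 15.1% to 25.7%, and 0 of the 46 members with under 5% shared passed (1 higher and 2 lower at an unadjusted p under 0.05, edgeR). At that unadjusted level 9 of the 78 were higher and 4 lower, against 17.9% and 15.2% of all genes. With DESeq2, 6 of the 78 members were higher and 6 lower, against 10.7% and 17.6% of all genes. Of the cytosolic RPs 43 of 79 were higher and 4 lower, with a median of 1.05. The low pseudogene share of kidney RNA-seq moves with these calls, and its part in them was not tested.

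**Figure D2:**
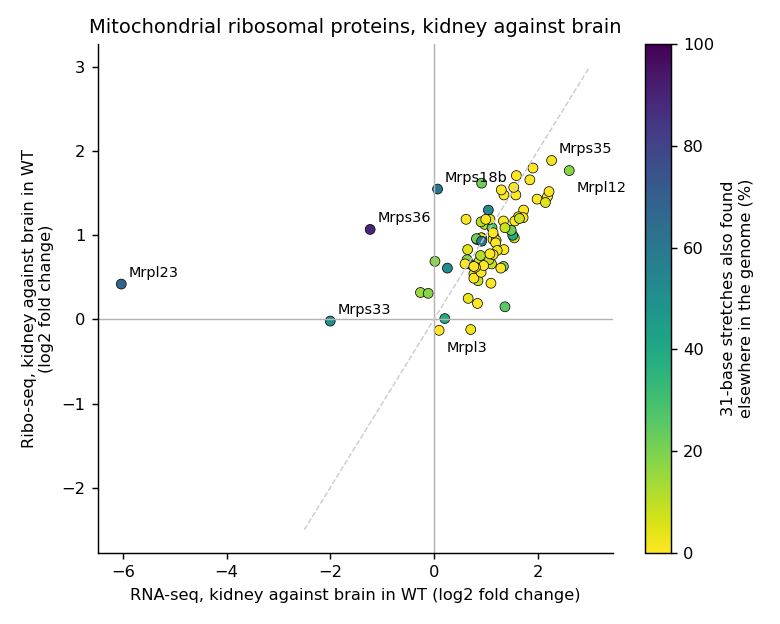
Log2 difference of kidney over brain in WT for the 78 members, mRNA (RNA-seq) on the horizontal axis and ribosome-protected fragments (Ribo-seq) on the vertical axis. Each point is 1 gene, coloured by the percent of its 31-base stretches found elsewhere in the genome. Most members lie between 0 and 2 on both axes, and Mrpl23 lies far to the left at -6.03 for mRNA.

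Loss of Rpl41 was accompanied by fewer RPFs on a few members in kidney. Of 78 members 7 were lower in KO than in WT (8.97%) and 0 were higher, where 3.82% of 13307 genes tested were lower and 6.00% higher. At an unadjusted p under 0.05, 29 members were lower and 2 higher, against 13.5% and 15.2% of all genes, and the median log2 change of the members was -0.20 against -0.02 for all genes. The KO libraries lay entirely below the WT libraries for 44 members and entirely above them for 2 (15.7% and 17.1% of all genes). The members that fell were Mrpl42, Mrpl33, Mrps36, Mrpl57, Mrpl34, Mrps24 and Mrps21, of which 4 belong to the large subunit and 2 to the small subunit.

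Mrpl42 (10:95480805-95501940), a mitochondria-specific protein, had 16.7, 16.9 and 18.7 CPM after TMM scaling in WT and 10.7, 11.6 and 12.7 CPM in KO (log2 change -0.56 ± 0.11, SE, adjusted p = 0.0127). Mrpl33 (5:31596935-31664384), a bacterial-type large-subunit protein of 65 residues, had 16.1, 14.0 and 19.0 CPM in WT and 11.8, 11.3 and 11.1 CPM in KO (-0.53 ± 0.12, adjusted p = 0.0219). For both, the highest KO library was below the lowest WT library. Of the exon bases of Mrpl33, 37% lie in another annotated gene on the same strand, Gm43809, so reads there cannot be assigned to one of them. Mrps36 (13:100735955-100744659) had 22.2, 22.8 and 29.3 CPM in WT and 18.6, 16.3 and 17.5 CPM in KO (-0.51 ± 0.12, adjusted p = 0.0280). Mrpl57 (14:57826234-57829296), another mitochondria-specific protein, had 9.39, 8.80 and 8.96 CPM in WT and 5.83, 7.07 and 6.69 CPM in KO (-0.45 ± 0.12, adjusted p = 0.0354). Again no KO library reached a WT library.

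Mrpl34 (8:71464959-71465747), the homolog of a bacterial large-subunit protein, had 19.4, 21.0 and 19.0 CPM in WT and 15.4, 14.6 and 13.8 CPM in KO (-0.44 ± 0.10, adjusted p = 0.0227). Mrps24 (11:5703983-5715680), whose bacterial homolog lines the mRNA entry channel, had 14.3, 12.1 and 12.8 CPM in WT and 8.10, 9.77 and 10.6 CPM in KO (-0.44 ± 0.12, adjusted p = 0.0447). Mrps21 (3:95862634-95871519) had 22.0, 23.4 and 25.4 CPM in WT and 16.4, 17.5 and 19.2 CPM in KO (-0.40 ± 0.11, adjusted p = 0.0401). The groups were separate for all 3. Mrpl12 just missed the threshold, with a log2 change of -0.36 ± 0.11 (adjusted p = 0.0577). The highest values belonged to Mrps9 (0.25, adjusted p = 0.208), Mrps30 (0.23, adjusted p = 0.156) and Mrps31 (0.23), and none of these passed. Of the other members with additional or altered roles, Mrps12 (-0.26), Mrps18c (-0.25), Mrps18a (-0.22), Mrpl58 (-0.15) and Mrps18b (-0.12) did not pass either.

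The number of calls depended on single libraries. Leaving out KO replicate 2 or KO replicate 3, the deepest KO libraries, left 0 members called (20 and 17 at an unadjusted p under 0.05, edgeR), and 0.370% and 0.215% of all genes were then lower. These 2 libraries also had the least mitochondrial rRNA, 0.208% and 0.185% of counts against 0.357% to 0.538% in the other 4, and the part of that difference in the calls was not tested. Without WT replicate 1 there were 2 calls (1.29% of all genes lower), without WT replicate 2 or KO replicate 1 there were 4 (1.63% and 2.93%), and without WT replicate 3 there were 7 (4.11%). DESeq2 gave 4 calls (1.56%) and counts summed over all transcripts of a gene gave 1, Mrpl42 (177 of 14716 genes lower). With library totals 8 members were lower and 0 higher, where 4.43% of all genes were lower and 2.50% higher. The members' median minus that of all genes stayed between -0.20 and -0.12 when any 1 library was left out. In individual libraries the median member stood 0.02 to 0.21 above the median gene in WT and at -0.13 to -0.06 in KO, on the log2 scale relative to each gene's mean over the 6 libraries.

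Markers of cell types differed between the genotypes in the same kidney Ribo-seq libraries. The 10 tubule and glomerulus markers summed to 5375 to 6200 CPM of library total in WT and 6639 to 7747 in KO. Of the 10 tested, 3 (Cubn, Lrp2 and Slc12a1) were called higher and 0 lower, where 6.00% of all genes tested were higher and 3.82% lower. The 5 immune markers summed to 75.4 to 115 CPM in WT and 130 to 140 in KO, and of the 3 tested Cd74 and Ptprc were called higher. The 7 markers of exocrine pancreas went the other way, with 2.42 to 145 CPM in WT, the highest in WT replicate 1, and 1.24 to 2.21 in KO. The 3 tested, Cpa1, Ctrb1 and Prss2, were called lower. The sums of the blood and fat markers overlapped, at 816 to 988 and 44.8 to 81.6 CPM in WT and 473 to 912 and 46 to 64.2 in KO. No marker of these 5 lists was at 0 in all 6 libraries. In kidney RNA-seq the sums of all 5 lists overlapped between the genotypes, and 0 of the markers tested were called. The part of the Ribo-seq marker differences in the members' RPF values was not tested.

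**Figure D3:**
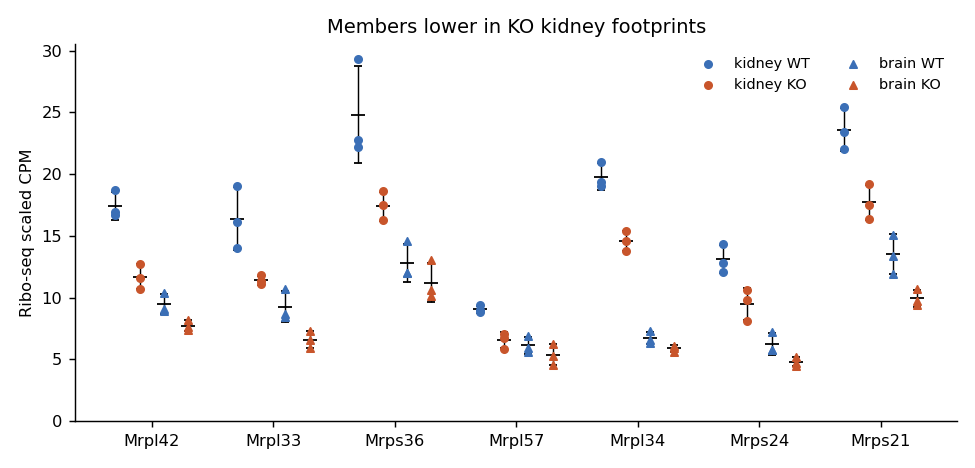
Ribosome-protected fragments of the 7 members that fell in KO kidney, in TMM-scaled CPM, in 3 WT and 3 KO libraries of each tissue. Each point is 1 library, with brain drawn as triangles, and the bars are group means with SD. In kidney the KO points lie below the WT points in all 7 genes, for example 10.7 to 12.7 against 16.7 to 18.7 for Mrpl42.

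Of the 7, 6 encode proteins of under 150 residues, and RPF changes in the members ran with protein length. Of 23 members under 150 residues 6 were lower (26.1%, median log2 change -0.29), of 28 members of 150 to under 250 residues 1 was lower (median -0.20), and of 27 members of 250 residues or more 0 were lower (median -0.10; at an unadjusted p under 0.05, 2 higher and 2 lower by edgeR). Among all genes in the same length classes 11.9%, 6.35% and 2.68% were lower, with medians of -0.27, -0.19 and 0.04. The members' medians were thus within 0.02 of those of all genes in the 2 shorter classes and 0.14 below in the longest. That class has no upper limit, and the members in it end at 442 residues, so lengths there were not matched. Across members the Pearson correlation of the log2 change with log2 protein length was 0.71 (Spearman 0.67, n = 78), and across 13307 genes it was 0.31. All points come from the same libraries. For cytosolic RPs, whose members under 150 residues had a median of -0.16, 2 of 79 fell, 1 of them Rpl41 itself, and the median was -0.09.

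In brain Ribo-seq no member passed (0 of 78, edgeR; 2 higher and 11 lower at an unadjusted p under 0.05, against 7.43% and 7.06% of all genes; DESeq2 also 0), and 0.0349% of 14338 genes were lower and 0 higher. The median log2 change was -0.10 for the members and -0.02 for all genes. The lowest values were those of Mrpl33, with 8.40, 10.7 and 8.66 scaled CPM in WT and 7.28, 6.52 and 5.90 in KO (-0.48 ± 0.14, adjusted p = 0.245), Mrps11 (-0.45) and Mrps12 (-0.44). Mrps9 (0.33), Mrps27 (0.32) and Mrps10 (0.20) were the highest. Blood markers summed to 646 to 1793 CPM of library total in WT and 340 to 441 in KO brain Ribo-seq, whereas neuron and glia markers overlapped. The 7 members called in kidney had log2 changes of -0.48 to -0.19 in brain. Medians by length class were -0.16, -0.11 and 0.01, and the correlation with log2 length was 0.61. The test of whether the KO effect on RPFs differed between the tissues called 0 of 78 members (edgeR; 0 higher and 1 lower at an unadjusted p under 0.05, against 4.77% and 4.61% of genes; DESeq2 0), where 0.0388% of 15466 genes were higher and 0.103% lower, with extremes of -0.40 for Mrpl15, -0.33 for Mrpl21 and for Mrpl55, and 0.18 for Mrpl49, 0.18 for Mrps11 and 0.21 for Mrps22.

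The mRNAs of the members leaned upward in KO kidney without passing the test. Of 77 members tested 0 were called (edgeR; 35 higher and 0 lower at an unadjusted p under 0.05, against 10.9% and 3.44% of genes; DESeq2 0), and 0.00729% of 13714 genes were lower and 0 higher. The member left out by the filter on low counts was Mrpl23. The median log2 change was 0.38 against 0.10 for all genes. Mrpl52 had 12.7, 13.9 and 9.70 scaled CPM in WT and 16.9, 23.2 and 26.8 in KO (0.88 ± 0.22, adjusted p = 0.292), and Mrpl20 had 42.3, 50.5 and 34.8 against 55.5, 87.9 and 90.1 (0.87 ± 0.22, adjusted p = 0.292). In both, KO replicates 2 and 3 were the highest. Mrpl54 followed with 0.81, and Mrpl9 (-1.09 ± 0.52, adjusted p = 0.311), Mrps18b (-0.62) and Mrps31 (-0.31) were the lowest. Mrpl9 had 5.69, 2.56 and 5.23 scaled CPM in WT and 3.79, 0.947 and 1.56 in KO, so its groups overlapped. Leaving out KO replicate 1 gave 25 calls, 24 higher and 1 lower, where 8.37% of all genes were higher and 2.60% lower in the same fit. With KO replicates 2 and 3, the libraries with 1.76% and 1.67% mitochondrial rRNA, both left out, 1 KO library remains against 3 WT libraries and the WT libraries alone give the spread, so no call is read from that fit. The members' median minus that of all genes was then 0.22 in place of 0.28. The part of these 2 libraries' other differences in the result was not tested. In cytosolic RPs the median was 0.56, with 30 higher at an unadjusted p under 0.05 and Rpl41 as the 1 call.

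In brain RNA-seq 0 of 78 members passed (edgeR; 2 higher and 0 lower at an unadjusted p under 0.05, against 3.51% and 1.43% of genes; DESeq2 0), where 0.00642% of 15581 genes were lower and 0 higher. The members' median was 0.23 and that of all genes 0.09. In the same libraries the 10 neuron and glia markers summed to 3792 to 3949 CPM of library total in WT and 4201 to 4227 in KO, and the 5 blood markers to 772 to 2394 and 405 to 735, with 0 called in either list, and the part of these differences in the members' values was not tested. Mrps28 had 3.55, 3.04 and 2.79 scaled CPM in WT and 3.50, 5.19 and 5.28 in KO (0.57), with overlapping libraries, and Mrpl54 (0.45) and Mrpl23 (0.39) came next. At the low end Mrpl9 (-0.04), Mrpl47 (-0.01) and Mrpl4 (0.06) were close to 0, and their signs changed when single libraries were left out. The KO effect on mRNA did not differ between tissues for any member at the threshold (0 of 78, edgeR; 0 higher and 1 lower at an unadjusted p under 0.05, against 2.65% and 5.27% of genes; DESeq2 0; 0% of 16272 genes), with Mrpl9 (-1.09), Mrps18b (-0.88) and Mrps31 (-0.47) at one end and Mrps24 (0.48), Mrpl52 (0.56) and Mrpl20 (0.62) at the other.

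Higher mRNA and lower RPFs gave lower fitted TE in KO kidney, but again without calls at the threshold. The interaction of assay and genotype called 0 of 78 members in kidney (edgeR; 1 higher and 39 lower at an unadjusted p under 0.05, against 6.47% and 11.3% of genes) and 0% of 15276 genes, with a median log2 change of -0.55 for the members, -0.61 for cytosolic RPs and -0.12 for all genes. Mrpl20 (-1.18), Mrpl33 (-1.17) and Mrpl52 (-1.16) had the lowest TE changes, each with an adjusted p of 0.119 to 0.125, and Mrpl9 (0.86), Mrps31 (0.54) and Mrps18b (0.49) the highest. DESeq2 called 24 members, all lower, where it called 3.09% of all genes lower and 1.32% higher. With edgeR and RNA-seq KO replicate 1 left out, 29 members were lower and 2 higher, against 6.70% and 4.57% of all genes. In brain 0 of 78 passed (edgeR; 0 higher and 7 lower at an unadjusted p under 0.05, against 1.77% and 3.53% of genes; DESeq2 0; 0% of 16554 genes). The brain median was -0.31 against -0.08 for all genes, and the extremes were Mrpl33 (-0.65), Mrpl51 (-0.64) and Mrpl12 (-0.61) on one side and Mrpl9 (0.17), Mrps5 (0.13) and Mrps9 (0.11) on the other. The kidney RNA-seq and Ribo-seq comparisons each enter this test, so it adds no independent evidence to them.

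Disome-seq was the shallowest assay, and 74 of 78 members passed its filter on low counts. No member was called (edgeR; 0 higher and 14 lower at an unadjusted p under 0.05, against 6.09% and 5.10% of genes), where 0.0911% of 7684 genes were higher and 0.0651% lower. DESeq2 called 0 of the 74, but gave an adjusted p to none of them. The median log2 change was -0.28 against 0.00 for all genes. In these libraries immune markers summed to 42.4 to 63.3 CPM of library total in WT and 64.2 to 96.4 in KO, blood markers to 270 to 308 and 145 to 200, and pancreas markers to 1.66 to 13.9 and 0 to 0.43. The part of these differences was not tested. Mrpl36, a very short large-subunit protein with a bacterial homolog, had 12.4, 12.9 and 16.3 scaled CPM in WT and 4.18, 5.64 and 5.85 in KO (-1.39 ± 0.31, adjusted p = 0.0669). Its RPFs were 13.7, 13.2 and 12.5 scaled CPM in WT and 9.78, 10.1 and 11.1 in KO, a log2 change of -0.34 (adjusted p = 0.0616). Both assays thus placed all KO libraries below WT for Mrpl36 without a call. Mrpl18 (-1.25) and Mrpl52 (-1.14) were next, and Mrps6 (0.25), Mrpl11 (0.15) and Mrpl44 (0.10) were the highest.

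Among the other genes of mitochondrial translation and its surroundings, kidney RPFs changed with Rpl41 loss in a few. Chchd1, a small-subunit protein with another symbol, fell by 0.45 on the log2 scale (adjusted p = 0.0479), the leucyl-tRNA synthetase Lars2 by 0.54, and the assembly factors Rbfa and Mpv17l2 by 0.67 and 0.43. These were 1 of 5, 1 of 20 and 2 of 21 genes in their lists, where 3.82% of all genes were lower. Of 12 translation factors 0 passed (edgeR; 2 higher and 1 lower at an unadjusted p under 0.05, against 15.2% and 13.5% of all genes). The import proteins Tomm40 and Timm23 fell by 0.38 and 0.47, 2 of 13 general mitochondrial proteins. In the list of mitochondrial transcription and its regulators 3 of 10 genes rose, where 6.00% of all genes did: Lrpprc, which stabilises mitochondrial mRNAs, by 0.68 (adjusted p = 0.0082), the polymerase Polrmt by 0.47 and Ppargc1a by 0.44. The list medians lay between -0.11 and 0.10.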

How the data were processed

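RNA-seq, Ribo-seq and disome-seq were analysed in 30 mouse libraries. The deposited mouse table holds raw read counts per Ensembl transcript. Per the study's methods, the authors trimmed reads with cutadapt and FASTX, removed rRNA reads and aligned to GRCm38.p6 transcripts and mm10 with STAR, allowing multimapping reads, and counted with featureCounts of the Subread package. The 28 value columns of the human count table could not be assigned to a sample and were not used. Counts were joined to GENCODE M21 by transcript identifier (141374 of 142604 matched). All transcripts entered the fits (edgeR 4.0.16 in R 4.3.3, filterByExpr, TMM, quasi-likelihood test), Benjamini-Hochberg adjustment ran over all transcripts tested, the threshold was 0.05, and 1 transcript per gene is reported. Each comparison used only its own groups. CPM values between tissues are per library total, and those between genotypes are TMM-scaled within tissue and assay. Intervals and errors cover the spread of 3 libraries.

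Members called are named if 10 or fewer, otherwise the 5 largest in each direction with separate groups, and the 3 largest each way if none passed, besides 8 genes always named. The members and lists were chosen with earlier results of these data known. Fits were tested on simulated data. The alternatives tried were DESeq2 1.42.0 and its size factors, scaling by library totals, dropping the filter, requiring at least 10 counts throughout, summing counts over a gene's transcripts, adding a replicate block and leaving out each library. Same-numbered libraries correlated over 0.1 in every pair for kidney RNA-seq with Ribo-seq (WT 0.14, 0.22 and 0.20, KO 0.11, 0.11 and 0.14), for brain RNA-seq with Ribo-seq in WT and for kidney with brain RNA-seq in KO, over 9738 genes. Between WT and KO no comparison met this in every pair, though replicate 2 reached 0.43 in kidney RNA-seq and 0.52 in brain RNA-seq.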

Additional observations from a re-analysis of the deposited data

Results flagged for a closer look

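The TE contrast of kidney with brain in WT differed from 0 for 8 members, which means that their kidney to brain difference was not the same in RPFs as in mRNA (edgeR's quasi-likelihood test of the assay by tissue interaction). The values were 6.61 for Mrpl23 (adjusted p = 8.2e-09), 2.47 for Mrps36 (1.2e-05), 2.15 for Mrps33 (8.5e-05), 1.66 for Mrps18b (2.3e-04), 0.87 for Mrpl4 (0.0107), 0.84 for Mrps5 (0.0123), 0.75 for Mrpl48 (0.0295) and -1.04 for Mrpl30 (0.0264). The first 4 share 51.6% to 89.4% of their 31-base stretches with other places in the genome. Processed pseudogenes took 0.0267% to 0.0437% of the counts of kidney RNA-seq and 1.46% to 4.74% in the other RNA-seq and Ribo-seq libraries. The part of this difference in the TE values was not tested.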

How the results depend on the processing

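Over the counts of members called and the members' medians relative to all genes, 374 values under alternative settings stayed close to those reported and 24 moved. With DESeq2 the calls moved to 4 for kidney Ribo-seq in KO against WT and to 24 for kidney TE. Counts summed per gene left 1 call in kidney Ribo-seq. Disome-seq gave 1 call with library totals, with no filter and with the replicate block. The relative median of kidney against brain in WT RNA-seq was 1.13 with no filter and 0.79 with at least 10 counts. In KO RNA-seq these were 1.26 and 0.87, and with at least 10 counts it was 0.85 in WT and 0.65 in KO Ribo-seq. The cause of these shifts was not tested. Leaving out 1 library at a time gave 0 to 25 calls in kidney RNA-seq, 0 to 7 in kidney Ribo-seq, 0 to 31 in kidney TE, 6 to 15 in TE of kidney against brain (15 without kidney RNA-seq WT replicate 3), 0 to 1 for RNA-seq tissue by genotype, a relative median of -0.51 to -0.33 in kidney TE and one of 0.85 to 0.99 in WT Ribo-seq of kidney against brain.

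Of the single genes named, 1499 values kept direction and call, 67 lost the call, 18 gained one and 21 changed sign. The sign changes were in values near 0. In brain RNA-seq Mrpl4 was -0.02 with library totals and -0.13 with counts summed per gene, and with 1 library left out Mrpl4 ran from -0.04 to 0.18, Mrpl9 from -0.14 to 0.08 and Mrpl47 from -0.08 to 0.10. In brain Ribo-seq Mrps18b was 0.03 with counts summed per gene and ran from -0.10 to 0.05 with 1 library left out, and Mrpl58 from -0.09 to 0.19. Under the same omissions disome-seq gave -0.09 to 0.39 for Mrpl44 and -0.11 to 0.49 for Mrpl11, and brain TE gave -0.01 to 0.19 for Mrps9. Mrps18b in WT RNA-seq of kidney against brain was -0.17 with library totals, -0.13 with at least 10 counts and -0.13 to 0.17 with 1 library left out.

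The replicate block gave 0 calls in kidney TE, 8 in TE of kidney against brain and 67 in KO RNA-seq of kidney against brain. In these comparisons same-numbered libraries correlated over 0.1 in every pair, which does not show that they came from 1 animal. The other comparisons did not meet this in every pair. There the block gave 5 calls in kidney Ribo-seq, 1 in disome-seq and 0 in the other KO comparisons and tissue by genotype tests. It gave 70 in both WT tissue contrasts and 73 in KO Ribo-seq of kidney against brain. It changed no other call count by over 1.5 times. Disome-seq had the fewest counts, 1187636 to 3018963 a library, and the effect of depth on its calls was not tested.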
